A study of Rattus norvegicus with 32 samples.

Results

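The acyl-CoA dehydrogenases that open mitochondrial fatty acid oxidation were followed in rat renal cortex by RNA sequencing. The genes were taken as a family by name, with earlier results of these data known. They are Acads, Acadm, Acadl and Acadvl, 4 of the 26404 Ensembl genes counted, and each lay on the chromosome expected for its name. The study asked how Roux-en-Y gastric bypass (RYGB), alone or combined with medical therapy, acts on the diabetic kidney. Sprague Dawley rats (SD) were the healthy controls. The other groups were Zucker Diabetic Sprague Dawley (ZDSD) rats, a polygenic model of diet-induced obesity and diabetes with early kidney disease. The ZDSD rats underwent a sham operation, which was a laparotomy (SHAM), RYGB alone (RYGB), or RYGB followed by fenofibrate, metformin, ramipril and rosuvastatin (RYGB-FMRR). According to the study's methods all rats were male, and every operated group received insulin for a short time before surgery. The labels give an age of 37 weeks in every group, whereas by the methods the sham operation took place at a younger age than RYGB, with the same interval before tissue collection in each.

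Counts from 31 rats were read, and 29 were used, namely 6 SD, 7 SHAM, 9 RYGB and 7 RYGB-FMRR rats. Another RYGB-FMRR rat named in the labels was not analysed here. Total counts ranged from 14502127 to 27597901 in the 29 libraries. The median total was 24089205.5 in SD and 23293075 in RYGB-FMRR, but 19835551 in SHAM and 20288430 in RYGB. The libraries of SHAM rats 343 and 348 held 121511 and 101534 counts and were left out, and their values are given separately after the other results. The deposited tables name genes by Ensembl identifier only. The tissue could therefore not be checked against marker genes of renal cell types, and other genes of fatty acid oxidation were not analysed here.

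Acyl-CoA dehydrogenases are flavoproteins of the mitochondrial matrix and inner membrane. They introduce a double bond into a fatty acyl-CoA, which is the opening step of each turn of beta-oxidation, and pass the electrons to electron transfer flavoprotein. The enzymes divide the work by chain length. A long fatty acid is taken first by the very long chain and long chain enzymes, and as it shortens it is handed to the medium chain and then the short chain enzyme. The cells of the proximal tubule, which make up much of the renal cortex, depend heavily on fatty acid oxidation for energy. Fenofibrate activates PPAR alpha, a nuclear receptor that promotes transcription of many genes of fatty acid oxidation.

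The genes differ in size and structure. Acads (ENSRNOG00000001177), the short chain enzyme, lies at chr12:49049580-49059163 of rn5 on the plus strand, and its 10 exon blocks comprise 1767 bases. Acadm (ENSRNOG00000009845), the medium chain enzyme, lies at chr2:278788485-278812656 on the minus strand, with 12 exon blocks of 1953 bases in all. Acadl (ENSRNOG00000012966), the long chain enzyme, occupies the longest span, chr9:73434321-73472895 on the plus strand, and has 11 exon blocks with 1502 bases. Acadvl (ENSRNOG00000018114), the very long chain enzyme, is compact. Its 20 exon blocks, 2121 bases in all, lie within chr10:56364442-56369608 on the minus strand. A further annotated gene on the opposite strand, ENSRNOG00000035519, lies within the span of Acadvl. It shares 0 exon bases with Acadvl, had between 0 and 3 counts in any library, and the counting used strand. No other annotated gene overlapped any of the 4.

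The 250 bases before the start of transcription are shown for the 3 genes with an entry in the RefSeq promoter table (build GRCr8). Whether any motif in them bears on the levels of the transcripts was not tested. Acadl had no entry. Capitals mark exact matches on either strand to the motifs searched. AGGTCA is the hexamer bound by many nuclear receptors, PPAR alpha among them, and TGACGTCA is the cAMP response element. The GC box was searched as GGGCGG, the CCAAT box as CCAAT, the E-box as CACGTG and the TATA box as TATAAA.
Acads, chr12:47154083-47154332, plus strand: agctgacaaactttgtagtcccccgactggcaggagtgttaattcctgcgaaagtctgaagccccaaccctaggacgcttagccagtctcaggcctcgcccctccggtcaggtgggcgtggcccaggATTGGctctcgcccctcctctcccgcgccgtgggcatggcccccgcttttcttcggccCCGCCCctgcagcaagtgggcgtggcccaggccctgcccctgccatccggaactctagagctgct
Acadm, chr2:245542865-245543114, minus strand: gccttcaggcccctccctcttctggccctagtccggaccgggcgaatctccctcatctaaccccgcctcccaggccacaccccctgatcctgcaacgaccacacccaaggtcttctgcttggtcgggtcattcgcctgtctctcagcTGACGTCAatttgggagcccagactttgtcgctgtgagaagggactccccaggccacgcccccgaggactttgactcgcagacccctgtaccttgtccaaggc
Acadvl, chr10:55236706-55236955, minus strand: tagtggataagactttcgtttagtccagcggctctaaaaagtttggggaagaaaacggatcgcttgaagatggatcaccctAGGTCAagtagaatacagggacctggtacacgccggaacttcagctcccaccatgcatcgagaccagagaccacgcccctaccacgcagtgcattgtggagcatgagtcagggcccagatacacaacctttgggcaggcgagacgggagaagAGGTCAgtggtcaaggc

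The Acadvl sequence held AGGTCA at 2 places on the printed strand, from 169 to 164 and from 17 to 12 bases before the start. AGGTCA occurs on either strand in 13.7% of 27457 promoters of the same length. The match nearer the start was also part of AGGTCAGTGGTCA, which lies 17 to 5 bases before the start and matches the direct repeat of the hexamer with a spacing of 1 base, the form bound by PPAR alpha together with the retinoid X receptor, at all but 1 of its fixed bases. The repeat with up to 1 mismatch was present in 0.386% of promoters, with up to 2 in 3.11% and without mismatch in 0.0546%. The setting with 1 mismatch was added after seeing the data, so its share is not a preset rate. Acadm held TGACGTCA from 103 to 96 bases before the start, a motif found in 1.70% of promoters. Acads held GGGCGG on the opposite strand from 65 to 60 bases and CCAAT on the opposite strand from 123 to 119 bases before the start, and these motifs occur in 32.4% and 34.3% of promoters. Neither AGGTCA nor the repeat, with up to 2 mismatches, was found in Acads or Acadm. CACGTG and TATAAA, which occur in 5.79% and 13.1% of promoters, were not found in any of the 3 sequences. GC content was 65.6% in Acads, 62.4% in Acadm and 53.6% in Acadvl. These matches describe the letters within this window only.

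All 4 transcripts were abundant. Levels were compared between genes in TPM, which relates each count to exon length and to the sum over all genes. In SD rats Acadm was at 833 ± 107 TPM (mean ± SD, n = 6) and ranked 146 among the 26404 genes. Acadvl was at 250 ± 12.4 TPM, Acadl at 229 ± 16.4 TPM and Acads at 148 ± 11.1 TPM in the same rats. The medium chain transcript was thus the most abundant of the 4 and the short chain transcript the least. Acads, at rank 1248, still exceeded 95.3% of all genes.

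The order from highest to lowest was Acadm, Acadvl, Acadl and Acads in every SD, SHAM and RYGB rat and in 6 of 7 RYGB-FMRR rats. The exception was RYGB-FMRR rat 324, in which Acadl was above Acadvl. Acadm stood well apart from the next transcript, with a level 3.32 times that of Acadvl in SD and 2.88 times in RYGB-FMRR, against 2.37 times in SHAM and 2.74 times in RYGB. Acadvl and Acadl were the closest neighbours in SD, RYGB and RYGB-FMRR, whereas in SHAM Acads and Acadl were closer, with Acads at 0.85 times Acadl. The TPM ranges of Acadvl and Acadl overlapped in SD and in RYGB-FMRR and were separate in SHAM and RYGB, where Acadl was at 0.70 and 0.79 times Acadvl. Acads lay below the range of Acadl in every group.

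The 4 transcripts together amounted to 1460.0 ± 129 TPM in SD and 1771 ± 74.5 TPM in RYGB-FMRR, but to 1113 ± 67.2 TPM in SHAM and 1130.2 ± 45.7 TPM in RYGB. The summed level of every SHAM and RYGB rat was below that of every SD rat, since the highest SHAM and RYGB rats were at 1194 and 1205 TPM and the lowest SD rat at 1305 TPM. The lowest RYGB-FMRR rat, at 1627.0 TPM, was just under the highest SD rat, at 1627.3 TPM. Acadm made up 56.9% ± 2.47 of the sum in SD and 50.8% ± 3.86 in SHAM. The share of Acadl was 18.2% ± 2.22 in RYGB-FMRR, and 15.8% ± 1.46, 15.0% ± 1.20 and 15.5% ± 0.914 in the SD, SHAM and RYGB rats. The share of Acads ran the other way, from 12.8% ± 0.800 in SHAM and 11.7% ± 0.551 in RYGB to 8.77% ± 0.433 in RYGB-FMRR.

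**Figure D1:**
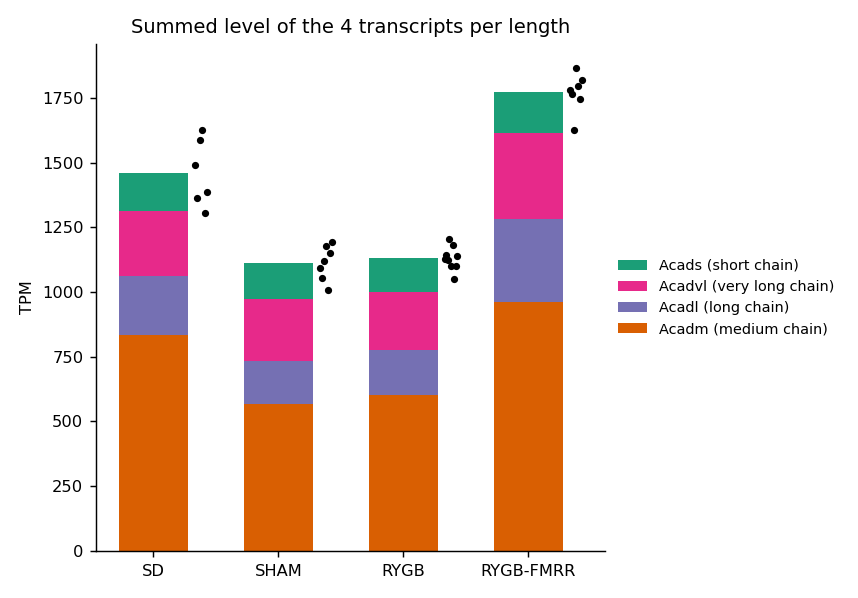
Mean level in TPM of the 4 transcripts, stacked, in SD (n = 6), SHAM (n = 7), RYGB (n = 9) and RYGB-FMRR (n = 7) rats, with a black point for the summed level of each rat. Acadm is the largest part of every bar, and the sum is lowest in SHAM and RYGB (1113 and 1130.2 TPM) and highest in RYGB-FMRR (1771 TPM).

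Values of single transcripts by rat are given as log2 CPM, counts relative to a library size scaled by the trimmed mean of M-values (TMM), which compare rats for the same gene. Acads, which handles the shortest acyl chains, had the smallest spread of group levels. Its lowest, median and highest values were 6.97, 7.15 and 7.41 in SD, and 6.62, 7.03 and 7.17 in SHAM. They were 6.64, 6.88 and 7.06 in RYGB, and 7.16, 7.24 and 7.32 in RYGB-FMRR. SD rats overlapped with every other group for this transcript, whereas every RYGB-FMRR rat lay above every RYGB rat. SHAM rat 333 was the lowest of its group by a wide margin.

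Acadm, whose enzyme acts on medium chain acyl-CoA and whose deficiency is a common inherited defect of fatty acid oxidation, was at 9.56, 9.82 and 10.17 in SD and at 8.63, 9.15 and 9.42 in SHAM (lowest, median and highest log2 CPM). The corresponding values were 9.03, 9.25 and 9.47 in RYGB and 9.78, 10.01 and 10.22 in RYGB-FMRR. SHAM and RYGB rats formed a low range and SD and RYGB-FMRR rats a high range, and no rat of the low range reached the high range. Acadm was also the most variable of the 4 within groups, with a biological coefficient of variation of 13.3%, compared with a median of 11.6% over all genes tested.

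Acadl, which oxidizes long and branched chain acyl-CoA, had the widest separation. Its lowest, median and highest log2 CPM were 7.46, 7.56 and 7.80 in SD and 6.88, 7.01 and 7.04 in SHAM. In RYGB they were 6.93, 7.03 and 7.28, and in RYGB-FMRR 7.93, 7.98 and 8.41. Every RYGB-FMRR rat was above every SD rat, and every SD rat was above every SHAM and RYGB rat. RYGB-FMRR rat 324 held the highest value, 8.41, and the next rat of that group was at 8.04.

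Acadvl, the membrane-bound enzyme that takes the longest chains, was at 8.09, 8.17 and 8.36 in SD and at 7.88, 7.98 and 8.12 in SHAM. It was at 7.78, 7.86 and 8.04 in RYGB and at 8.56, 8.61 and 8.64 in RYGB-FMRR. The RYGB-FMRR rats were tightly grouped and lay above every rat of the other groups. SHAM overlapped with SD at its top, in that 6 of 7 SHAM rats were below every SD rat. Acadvl had the smallest biological coefficient of variation of the 4, 7.04%, and that of Acads and Acadl was 9.73% and 9.10%.

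**Figure D2:**
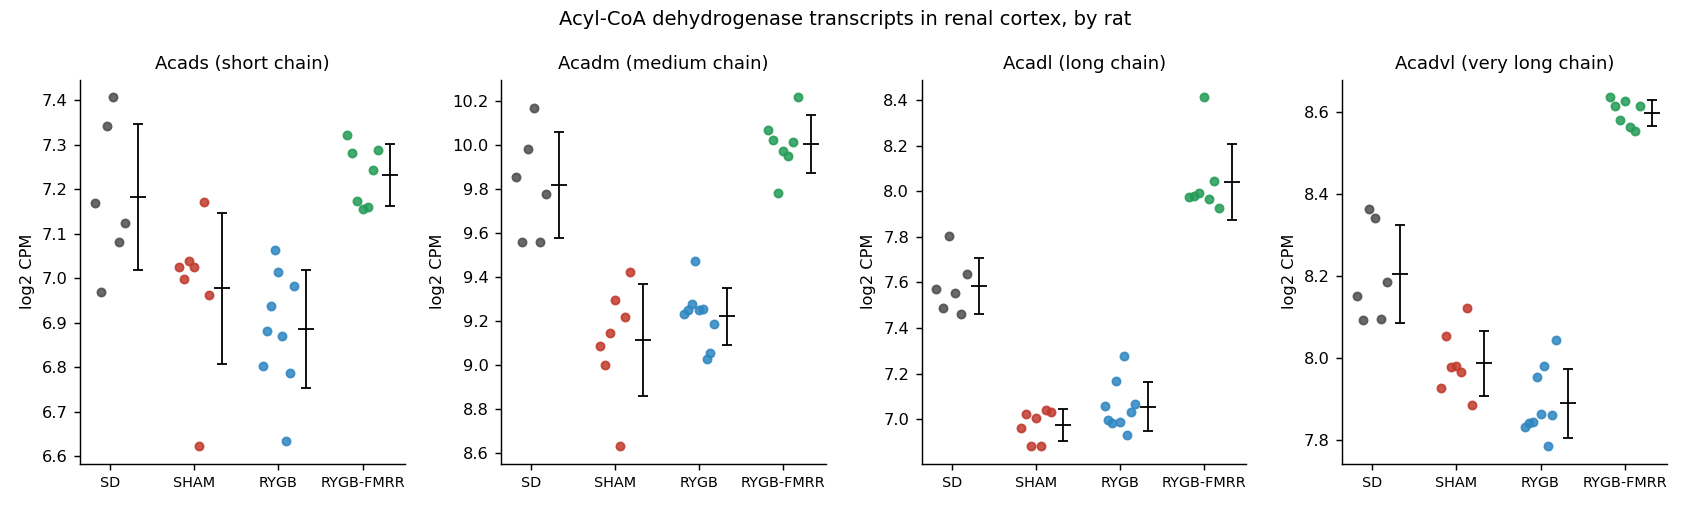
Log2 CPM of Acads, Acadm, Acadl and Acadvl in each rat (points) of the 4 groups, with the group mean and SD beside the points and a separate vertical scale in each panel. RYGB-FMRR rats lie above all RYGB rats in every panel, and above all SD rats for Acadl and Acadvl.

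The first comparison set the SHAM disease controls against SD. These groups differ in strain, laparotomy and insulin before surgery as well as in diabetes, and these cannot be told apart. By the methods, the timing of the sham operation would leave SHAM rats younger at collection than labelled, so age may differ as well. All 4 transcripts were lower in SHAM by edgeR's quasi-likelihood test at an adjusted p-value under 0.05, where 17.8% of the 14776 genes tested were called lower. Acadm fell by 38.5% and Acadl fell by 34.6%, and these were the only ones whose SHAM and SD rats did not overlap, as was true of 4.44% of genes in this direction. The log2 fold changes were -0.70 ± 0.10 for Acadm (SE, adjusted p = 8.94e-06) and -0.61 ± 0.07 for Acadl (adjusted p = 1.65e-07). Acadvl and Acads changed less, by -0.22 ± 0.05 (adjusted p = 0.00132) and -0.20 ± 0.07 (adjusted p = 0.0346) on the log2 scale. The median over all genes was 0.02 and that over the 4 was -0.42. As the samples are whole cortex, fewer cells of a type and less RNA per cell cannot be told apart here or in the comparisons that follow. The call of Acads was lost without SD rat 354 (log2 fold change -0.17, adjusted p = 0.0941), without SD rat 355 (-0.16, adjusted p = 0.117) and without SHAM rat 333 (-0.15, adjusted p = 0.0947). With library totals alone as the scaling, Acadvl was at -0.096 (adjusted p = 0.0753) and Acads at -0.082 (adjusted p = 0.257), while the median of all genes moved to 0.14. Acads was also not called with 2 surrogate variables (-0.078, adjusted p = 0.327) or in a model of SHAM and SD only (-0.21, adjusted p = 0.0899).

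RYGB alone was compared with SHAM, which differed in the operation. By the methods SHAM rats were operated on at a younger age, so age and the operation cannot be told apart. None of the 4 transcripts was called by edgeR's quasi-likelihood test, where 12.9% of genes were, and the groups overlapped for each, as they did not for 1.27% of genes. DESeq2 called none of the 4 either. At an unadjusted p under 0.05 there was 1 of the 4, Acadvl, where 28.4% of genes were. Acadm and Acadl had log2 fold changes of 0.10 ± 0.09 (adjusted p = 0.542) and 0.08 ± 0.06 (adjusted p = 0.409). Those of Acadvl and Acads were -0.10 ± 0.05 (adjusted p = 0.159) and -0.09 ± 0.07 (adjusted p = 0.379), respectively. The 95% intervals of the fold change were 0.936 to 1.22 for Acadm, 0.969 to 1.16 for Acadl, 0.876 to 0.997 for Acadvl and 0.850 to 1.03 for Acads. A change of more than 1.3 times lay outside each of these intervals. With library totals alone, Acadvl was called at -0.13 (adjusted p = 0.0302).

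RYGB-FMRR was compared with the same SHAM rats, and the difference in age at the operation applies here too. All 4 transcripts were higher in RYGB-FMRR by edgeR's quasi-likelihood test, where 10.2% of genes were called higher. Acadl rose most, to 2.11 times the SHAM level (log2 fold change 1.07 ± 0.07, adjusted p = 2.18e-12), and ranked 5 among 14776 genes by p-value. Acadm rose to 1.84 times (0.88 ± 0.10, adjusted p = 2.08e-07) and Acadvl to 1.53 times (0.61 ± 0.05, adjusted p = 2.67e-10). These 3 did not overlap between the groups, which held for 3.44% of genes in this direction. Acads rose to 1.19 times (0.25 ± 0.07, adjusted p = 0.0135), and 5 of 7 RYGB-FMRR rats were above every SHAM rat. With library totals alone Acads was at 0.13 (adjusted p = 0.068), and the median of all genes was then -0.13.

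RYGB-FMRR against RYGB contrasts surgery with and without the medications. By the study's methods the operations of these groups were staggered and done at different ages. RYGB-FMRR rats also lost more weight and had a larger fall in plasma glucose. The medications cannot be told apart from these differences. All 4 transcripts rose, where 7.32% of genes were called higher by edgeR's quasi-likelihood test, and every RYGB-FMRR rat was above every RYGB rat for each of them, as for 1.96% of genes. Acadl rose to 1.99 times the RYGB level (log2 fold change 0.99 ± 0.06, adjusted p = 1.37e-12) and Acadm to 1.72 times (0.78 ± 0.09, adjusted p = 5.93e-07). Acadvl rose to 1.63 times (0.71 ± 0.05, adjusted p = 2.52e-12) and Acads to 1.27 times (0.34 ± 0.07, adjusted p = 0.00109). By p-value Acadl and Acadvl ranked 9 and 10 among all genes tested, Acadm 78 and Acads 298. Only Acads remained under the 1.3-fold threshold that the study set, and 2.74% of genes were called higher beyond it. The medications were given together, so their separate parts cannot be told apart.

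Both treated groups were also set beside the healthy controls. They differ from SD in strain, surgery and insulin before surgery as well as in diabetes, and RYGB-FMRR also in the medications. These cannot be told apart. RYGB rats were below SD for all 4 transcripts by edgeR's quasi-likelihood test, where 20.5% of genes were called lower. Acadm was at 0.657 times the SD level (log2 fold change -0.61 ± 0.10, adjusted p = 1.82e-05) and Acadl at 0.692 times (-0.53 ± 0.06, adjusted p = 3.78e-07). Acadvl was at 0.802 times (-0.32 ± 0.05, adjusted p = 7.87e-06) and Acads at 0.813 times (-0.30 ± 0.07, adjusted p = 0.00142). The groups did not overlap for Acadm, Acadl and Acadvl, and this held for 5.54% of genes in this direction.

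In RYGB-FMRR the long chain transcripts exceeded the SD level and the shorter chain transcripts were not called. The differences in strain, surgery, insulin and medications named above apply here too. By edgeR's quasi-likelihood test Acadl was at 1.38 times SD (log2 fold change 0.46 ± 0.07, adjusted p = 8.39e-06) and Acadvl at 1.31 times (0.39 ± 0.05, adjusted p = 1.18e-06), where 15.3% of genes were called higher. Every RYGB-FMRR rat was above every SD rat for both, as for 5.45% of genes. Acadm had a log2 fold change of 0.18 ± 0.10 (adjusted p = 0.204), with a 95% interval of 0.976 to 1.31 times SD. For Acads it was 0.04 ± 0.07 (adjusted p = 0.699), with an interval of 0.927 to 1.15 times. With 2 surrogate variables in the model Acadm was called at 0.24 (adjusted p = 0.00194). The difference between transcripts was tested on the log2 ratio of their counts within each rat. Acads was lower relative to Acadl by -0.41 and relative to Acadvl by -0.34 (exact permutation, adjusted p = 0.00191 for both). Acadm was lower relative to Acadvl by -0.21 (exact permutation, adjusted p = 0.0240), a call lost without SD rat 355 (-0.16, adjusted p = 0.0509), and its difference relative to Acadl, -0.27, did not pass (adjusted p = 0.0605). The comparisons share rats, since SHAM, RYGB, RYGB-FMRR and SD each enter 3 of the 6.

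**Figure D3:**
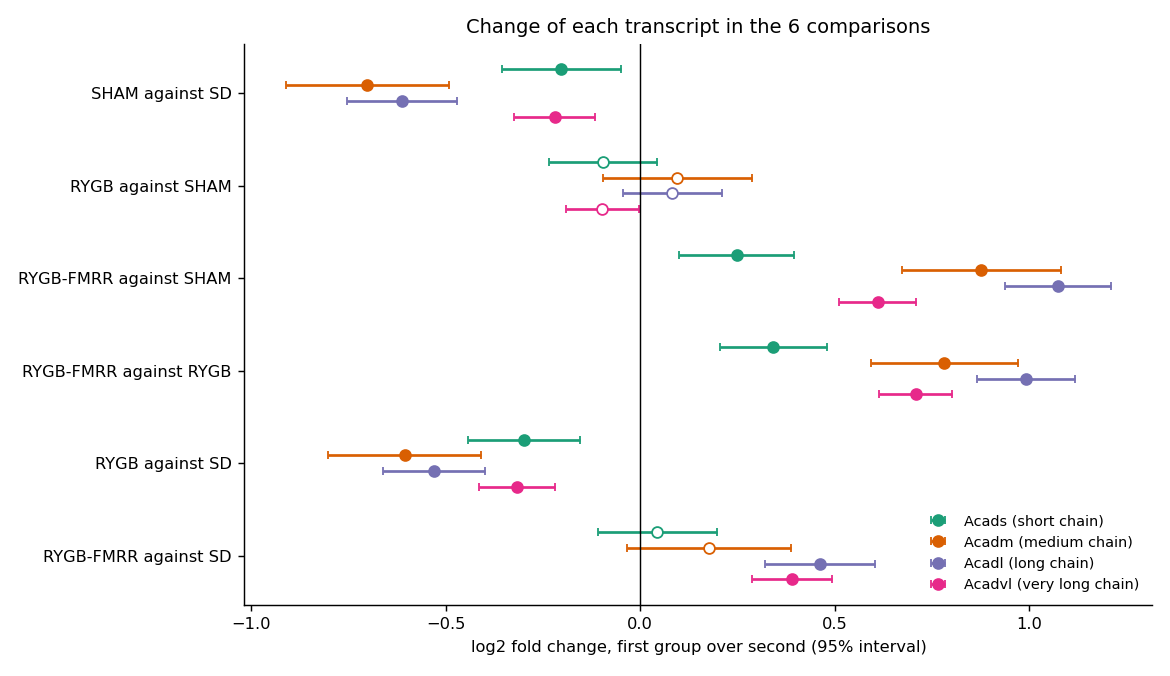
Log2 fold change of the first group over the second for each transcript in the 6 comparisons, with 95% intervals, where filled points are called at an adjusted p-value under 0.05 and open points are not. Acadm and Acadl are farthest below 0 in SHAM against SD (-0.70 and -0.61), and Acadl is farthest above 0 in RYGB-FMRR against SHAM (1.07).

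Whether the transcripts changed by different amounts was tested on the ratio of counts within each rat, which depends neither on library size nor on scaling. Two-sided exact permutation tests over rats were made for 6 pairs of transcripts in 6 comparisons, and 25 of the 36 passed at an adjusted p-value under 0.05. In RYGB-FMRR, Acads was lower relative to each of the other 3 transcripts than in SHAM, RYGB or SD, and each of these 9 tests passed. With all 31 libraries, Acads to Acadvl in RYGB-FMRR against SHAM was at -0.25 and was not called (exact permutation, adjusted p = 0.181). Acads to Acadm against SD was not called in that setting either, as given below. The log2 ratio of Acads to Acadl was 0.0027 ± 0.14 in SHAM (mean ± SD, n = 7) and -0.17 ± 0.14 in RYGB (n = 9), compared with -0.40 ± 0.14 in SD rats (n = 6) and -0.81 ± 0.21 in RYGB-FMRR (n = 7). The difference between RYGB-FMRR and RYGB was -0.64, with an exact permutation p = 8.74e-05 (adjusted p = 0.000787), the smallest these group sizes can give. The ratio of Acads to Acadm and to Acadl passed the test in all 6 comparisons with the 29 libraries used. The weakest of these by adjusted p-value were RYGB-FMRR against SD for Acads to Acadm, -0.14 (exact permutation, adjusted p = 0.0391), and RYGB against SHAM for Acads to Acadl, -0.17 (adjusted p = 0.0454). The first was no longer called when any of 10 of its 13 rats was left out (all but SD rats 352 and 355 and RYGB-FMRR rat 323), with adjusted p up to 0.0769. The second was no longer called when any of 10 of its 16 rats was left out (all but SHAM rats 333 and 340 and RYGB rats 319, 330, 337 and 350), with adjusted p up to 0.0894. With all 31 libraries, Acads to Acadl was at 0.17 in SHAM against SD (exact permutation, adjusted p = 0.619) and at 0.063 in RYGB against SHAM (adjusted p = 0.869). Acads to Acadm was then not called in RYGB against SHAM (exact permutation, adjusted p = 0.234) or RYGB-FMRR against SD (adjusted p = 0.0506). The other calls of these ratios were kept.

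No difference in the ratio of Acads to Acadvl passed the test among the groups without medication. Their log2 ratio was -1.02 ± 0.06 in SD, -1.01 ± 0.15 in SHAM and -1.004 ± 0.11 in RYGB. SHAM minus SD was 0.014 (exact permutation, adjusted p = 0.916), RYGB minus SHAM was 0.0057 (adjusted p = 0.938) and RYGB minus SD was 0.020 (adjusted p = 0.752). In RYGB-FMRR it was -1.37 ± 0.06, which differed from RYGB by -0.36 (exact permutation, adjusted p = 0.000787). In the 29 libraries used, the reduction of Acadm and Acadl in SHAM was larger than that of Acadvl. The log2 ratio of Acadl to Acadvl was lower in SHAM than in SD by -0.39 (exact permutation, adjusted p = 0.00191), and that of Acadm to Acadvl by -0.48 (adjusted p = 0.00699). With all 31 libraries the difference for Acadl to Acadvl was -0.27 and was not called (exact permutation, adjusted p = 0.0749).

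The ratio of Acadm to Acadl passed the fewest tests, 1 of 6. Their log2 ratio was 1.96 ± 0.23 in RYGB-FMRR, and 2.23 ± 0.20, 2.14 ± 0.22 and 2.17 ± 0.12 in the SD, SHAM and RYGB rats, and only RYGB-FMRR against RYGB passed the test, with a difference of -0.20 (exact permutation, adjusted p = 0.0458). This call was lost when any of 12 of its 16 rats was left out (all but RYGB rats 338 and 346 and RYGB-FMRR rats 307 and 339), with adjusted p up to 0.110. The difference between RYGB-FMRR and SD, -0.27, passed without RYGB-FMRR rat 339 (-0.32, exact permutation, adjusted p = 0.00779). Although none of the 4 transcripts was called between RYGB and SHAM, the ratio of Acadl to Acadvl was higher in RYGB by 0.18 (exact permutation, adjusted p = 0.00472). In the same comparison the ratio of Acads to Acadm was lower by -0.20 (exact permutation, adjusted p = 0.0173). With all 31 libraries neither passed. The differences were then 0.052 for Acadl to Acadvl (exact permutation, adjusted p = 0.693) and -0.12 for Acads to Acadm (adjusted p = 0.234).

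**Figure D4:**
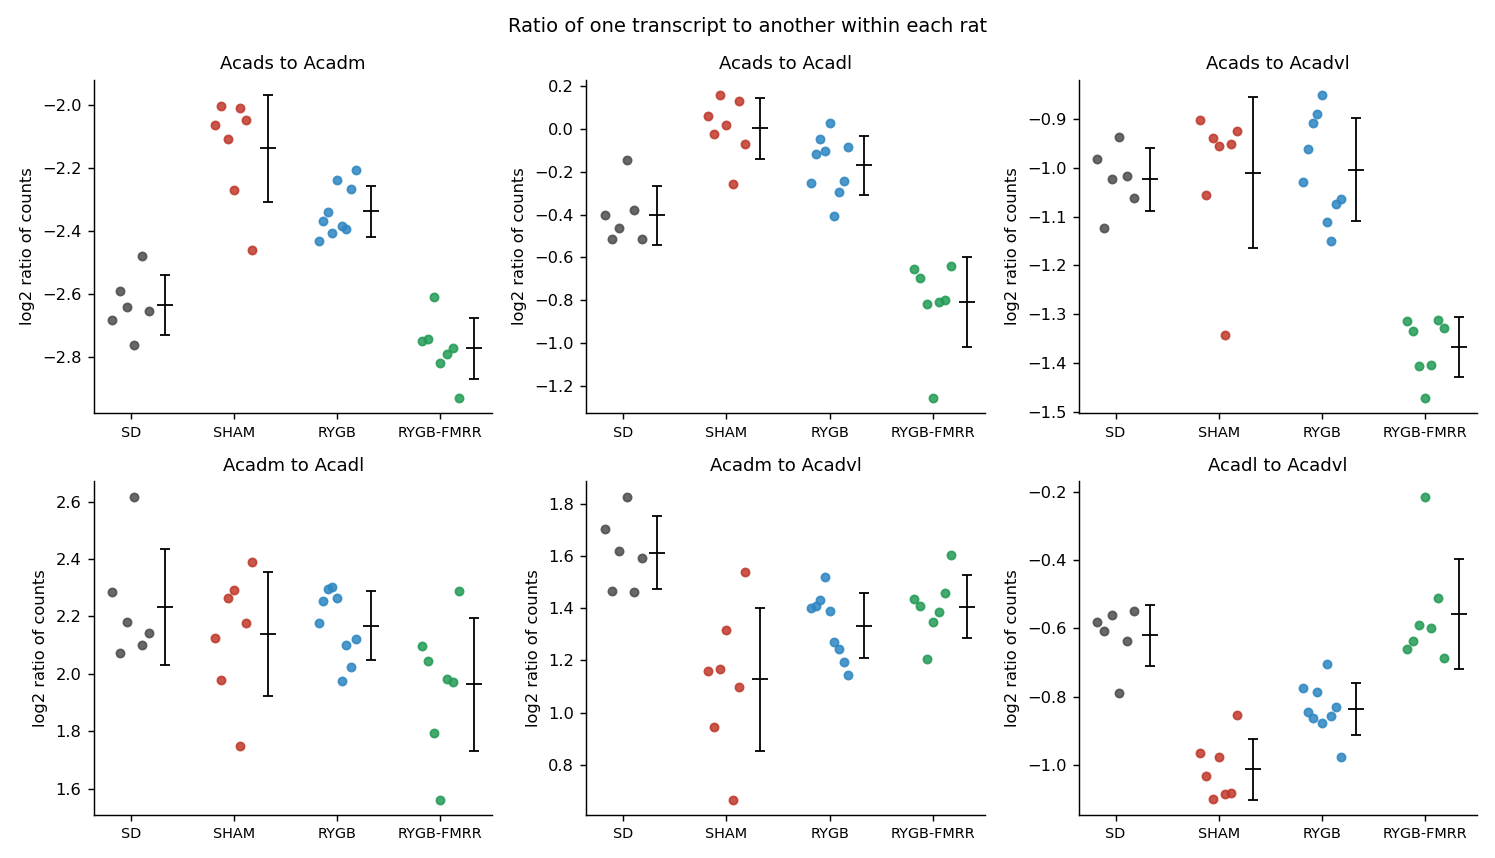
Log2 ratio of the counts of each pair of transcripts in each rat (points) by group, with the group mean and SD beside the points and a separate vertical scale in each panel. The ratio of Acads to Acadl is lowest in RYGB-FMRR (mean -0.81) and highest in SHAM (0.0027), and the ratio of Acads to Acadvl is between -1.02 and -1.004 in the other 3 groups and at -1.37 in RYGB-FMRR.

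Rats of the same group also differed from each other, and the deviations of log2 CPM from the group mean were compared over the 29 rats. Acads and Acadm deviated together, with r = 0.81 and rho = 0.75 (within-group permutation test, adjusted p = 0.00018 and 0.00024 over the 6 pairs). The correlation was 0.96 within SD, 0.81 within RYGB, 0.75 within SHAM and 0.70 within RYGB-FMRR, and without the 2 rats farthest from the median (333 and 344) it was 0.72. Acads with Acadvl gave r = 0.65 and rho = 0.66 (permutation test, adjusted p = 0.0039 and 0.00225), and Acadl with Acadvl gave r = 0.49 and rho = 0.50 (adjusted p = 0.00552 and 0.0189). Without the 2 farthest rats these were 0.71 and 0.55. Acads and Acadl did not pass the test, with r = 0.25 and rho = 0.26 (permutation, adjusted p = 0.161 and 0.195), and neither did Acadm with Acadl (r = 0.31 and rho = 0.35, adjusted p = 0.101 and 0.0984) or Acadm with Acadvl (r = 0.41 and rho = 0.40, adjusted p = 0.0944 and 0.084). Acads with Acadl had r = 0.57 within SD, 0.58 within SHAM and 0.35 within RYGB, but -0.52 within RYGB-FMRR. Acadm with Acadl was likewise at 0.54, 0.64 and 0.50 in the first 3 groups and at -0.20 in RYGB-FMRR. Without RYGB-FMRR rat 324, which was high for Acadl, Pearson's test was passed by Acads with Acadl (r = 0.44, permutation adjusted p = 0.0466) and by Acadm with Acadl (r = 0.44, adjusted p = 0.0387). Spearman's test was not, with rho = 0.35 (permutation adjusted p = 0.0939) and 0.38 (adjusted p = 0.0748). The correlations within RYGB-FMRR were then -0.18 and -0.46, over 6 rats. The scaling bears on these values. On library totals alone Acads with Acadm gave r = 0.69 (permutation test, adjusted p = 0.0027), whereas Acads with Acadvl fell to 0.32 (adjusted p = 0.284) and Acadl with Acadvl to 0.39 (adjusted p = 0.0501).

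**Figure D5:**
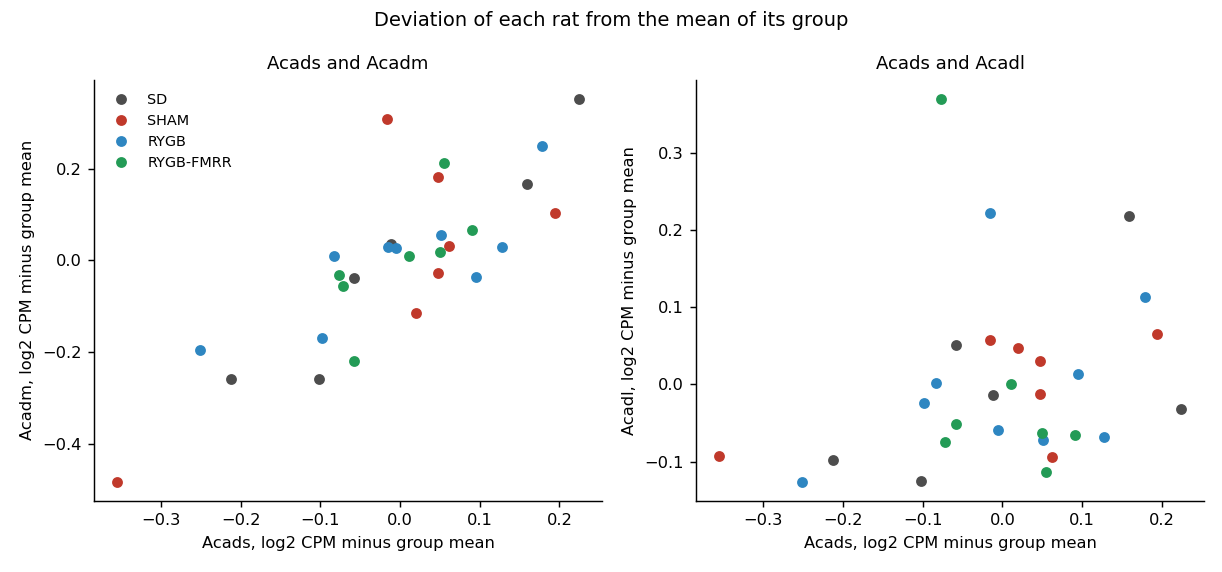
Log2 CPM of each rat minus the mean of its group, for Acads against Acadm (left) and Acads against Acadl (right), with 1 point a rat and colours for the 4 groups. The points follow a line in the left panel (r = 0.81) and scatter in the right panel (r = 0.25, or 0.44 without RYGB-FMRR rat 324, the highest point).

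As a description of likeness, each transcript was ranked among the other 14775 genes tested by its correlation over the 29 rats, group differences included. Acadl and Acadvl were closest, with r = 0.94, so that Acadvl ranked 6 among the genes most like Acadl. Acadm and Acadl had r = 0.89, which placed Acadl at rank 23 for Acadm. After centring on the group means, however, Acadl ranked 4221 for Acadm. Acads was most like Acadm, at rank 54 with r = 0.87, and at rank 132 after centring.

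The 2 libraries left out held few counts of each transcript. SHAM rat 343 had 18 counts of Acads, 92 of Acadm, 27 of Acadl and 33 of Acadvl. SHAM rat 348 had 8, 50, 23 and 35 counts in the same order. On library totals Acadl was at 222 CPM (exact Poisson 95% interval 146 to 323) in rat 343 and at 227 CPM (144 to 340.0) in rat 348, above the 123 to 134 CPM of the 7 SHAM rats used. These intervals cover counting error only. Acadm, at 757 CPM (610.4 to 929) and 492 CPM (366 to 649), overlapped with the 445 to 696 CPM of the other SHAM rats.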

How the data were processed

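Renal cortex RNA was prepared as stranded, ribosome-depleted total RNA libraries and sequenced in pairs. Per the labels, the authors trimmed reads with Trim Galore and aligned them to rn5 with STAR. The deposited values are raw read pair counts per Ensembl gene, made by the authors with featureCounts 1.6.4 over exons on the reverse strand, without multi-mapping or multi-overlapping reads and without normalization.

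These counts were scaled by TMM, filtered with filterByExpr (minimum count 10) and tested by quasi-likelihood in edgeR 4.0.16 (R 4.3.3), with a single model of the 4 groups and no covariates, and p-values were adjusted by Benjamini-Hochberg over the 14776 genes tested. A gene was called at an adjusted p-value under 0.05. The study used the Wald test of DESeq2, run here as an alternative (DESeq2 1.42.0), and set a threshold of 1.3-fold. Standard errors (SE) were obtained as the absolute log2 fold change over the square root of F. Log2 CPM used a prior count of 2. TPM used the exon lengths in the deposited tables. Exact permutation tests covered all arrangements of rats between 2 groups, and correlations used 100000 shuffles within groups. Libraries under 1e+06 counts were left out. The edgeR test was checked on simulated counts that had a common spread for all genes. The share of changed genes that this check had to recover was lowered after a first run fell short of it, and its limits on false calls and bias were kept. The exact permutation function was compared with an independent implementation on a single random draw. The correlation test was not checked in this way.

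No 2 libraries had identical counts. The labels number each rat, and p-values measure the spread between rats. The members and the gene lists were chosen with earlier results of these data known. The genes named are the 4 members. The planned lists of fatty acid oxidation genes and cell type markers and the genes most alike in pattern are named by symbol, and the reference table gave Ensembl identifiers for 0 of 47357 genes, so these were not analysed here. Members were named by identifier and chromosome.

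Alternatives were all 31 libraries, DESeq2, its size factors inside edgeR, library totals alone, no filter, 2 surrogate variables (sva 3.50.0), models of the 2 groups compared, leaving out each rat, 0.5 added to counts in ratios, and RPKM in place of TPM. Correlations without RYGB-FMRR rat 324 and the repeat with 1 mismatch were added after seeing the data.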

Additional observations from a re-analysis of the deposited data

Results flagged for a closer look

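A rat was marked as standing apart when its gap to the nearest rat of its group was a large part of the group's range by Dixon's 95% critical value. Of 40 sets of values tested this way, 7 had such a rat. Chance marks about 1 in 20 sets, but 24 of the sets were ratios of the counts behind the other 16. The sets are therefore not independent, and 7 of 40 is not a test of an excess over chance. The marks fell on rats 324, 333 and 355 only. RYGB-FMRR rat 324 was high for Acadl, at 8.41 log2 CPM, with the next rat at 8.04. The same rat had the lowest log2 ratio of Acads to Acadl counts in its group, -1.26, and the highest log2 ratio of Acadl to Acadvl, -0.21. SHAM rat 333 was low for Acads, at 6.62 log2 CPM against 6.96 in the next rat, and had the lowest log2 ratio of Acads to Acadvl in SHAM, -1.34. Its library had the lowest total count of the 29, 14502127. SD rat 355 had the highest log2 ratio of Acads to Acadl in SD, -0.15, and the lowest log2 ratio of Acadl to Acadvl, -0.79. Without rat 324, Acadl remained called in the 3 comparisons of RYGB-FMRR, as it did in every fit of these comparisons that left out 1 rat.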

How the results depend on the processing

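Of 168 fold changes recomputed under other settings, 161 kept their direction and side of the threshold. With library totals alone, SHAM against SD gave -0.096 for Acadvl and -0.082 for Acads, RYGB against SHAM gave -0.13 for Acadvl, now called, and RYGB-FMRR against SHAM gave 0.13 for Acads. This scaling moved the median of all genes to 0.14, -0.031, -0.13, -0.10, 0.097 and 0.0055 in the 6 comparisons in the order of the report. Relative to that median, Acads was at -0.22 and Acadvl at -0.23 in SHAM against SD. With 2 surrogate variables, Acads was at -0.078 (call lost, adjusted p = 0.327) in SHAM against SD and Acadm at 0.24, called, in RYGB-FMRR against SD. A model of SHAM and SD only gave -0.21 for Acads, a similar size but no longer called (adjusted p = 0.0899). Leaving out each rat in turn gave -0.24 to -0.15 for Acads in SHAM against SD, with the call lost for 3 of 13 rats, and changed no other fold change call. With all 31 libraries, 16 rather than 25 ratio tests passed, and the ratio of Acads to Acadvl in SHAM against SD (-0.096) and of Acads to Acadl in RYGB against SHAM (0.063) turned. The share of Acadl in SHAM was then 16.6%. Leaving out 1 rat left 22 to 26 ratio tests passed, and the call of a single ratio was lost in 44 cases. Among these was Acadm to Acadvl in RYGB-FMRR against SHAM, at 0.28 (exact permutation, adjusted p = 0.0420). Its call was lost in 11 of 14 fits, with adjusted p up to 0.0783. Leaving out 1 rat also turned the sign of differences that were not called. These ranged for Acads to Acadvl over -0.0061 to 0.069 in SHAM against SD, -0.050 to 0.024 in RYGB against SHAM and -0.00043 to 0.0379 in RYGB against SD. For Acadm to Acadl they ranged over -0.037 to 0.0701 in RYGB against SHAM and -0.097 to 0.012 in RYGB against SD. On library totals the correlations were -0.077 for Acads with Acadl, 0.32 for Acads with Acadvl, -0.046 for Acadm with Acadvl and 0.39 for Acadl with Acadvl. Without RYGB-FMRR rat 324, a choice made after seeing the data, Acads with Acadl and Acadm with Acadl were both at 0.44 and passed. The causes were not tested. No paired analysis was possible because each rat belongs to 1 group and no number recurs between groups. The alternatives for the fatty acid oxidation lists were not run. The 2 shallow libraries, with 8 to 92 counts a transcript, entered only the setting with all 31 libraries and their own description.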
